A study of Rattus norvegicus with 8 samples.

Results

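The 8 genes described here are the GABA-A receptor subunit genes Gabra2, Gabra4, Gabrb1, Gabrb2, Gabrg1 and Gabrr3, together with Gad1 and Abat, which encode an enzyme that makes GABA and one that breaks it down. They are 8 of the 10 genes met by a rule on symbols in the gene table that accompanies the study, which pairs 1998 of the 32623 counted Ensembl gene IDs with a symbol in the part used here. Subunit genes whose symbols fall in the 13838 table rows not held were not analysed here. RNA was sequenced from retinal ganglion cells (RGCs), the neurons whose axons form the optic nerve, of Sprague Dawley rats. The stages were embryonic day 21 (E21), just before birth, and day 11 after birth (P11), with 4 libraries from separate litters at each and no treatment named for either. The cells were purified from dissociated retinas by immunopanning, in which one coated plate takes out macrophages and a plate with an antibody to Thy1 then holds RGCs. The libraries held between 13899299 and 20116017 counted reads at E21 and between 14780002 and 17756824 at P11, so that 3 reads, the floor used here, corresponded to between 0.152 and 0.219 CPM (counted reads scaled to a common library size).

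GABA is the main inhibitory transmitter of the adult retina and brain. GABA-A receptors are chloride channels of several subunits, most often alpha and beta subunits with a gamma subunit, and the alpha and gamma subunits present set how the channel responds to GABA and to benzodiazepines. In many immature neurons the chloride gradient is reversed and GABA depolarises the cell, and the set of receptor subunits in use changes as circuits mature. In the retina RGCs receive GABA mostly from amacrine cells.

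The transcripts of this group were more abundant at P11 at nearly every gene. Of the 8 genes, 7 had enough reads to be tested, and all 7 rose at P11 past the thresholds used throughout, an adjusted p below 0.01 in edgeR's quasi-likelihood test and a log2 fold change (P11 over E21) beyond 1. In at least 1 E21 library Gabrg1 and Gad1 had fewer than 10 reads, and they passed the filter on low counts through P11. When at least 10 counts were asked of every library, both dropped out. The 5 genes still tested all rose past the thresholds, as did 1523 of all 12532 genes then tested. Over all 10 genes met by the rule, 9 were tested and 8 rose past both thresholds in the main analysis. Among all 14043 genes tested, 16.5% rose past the same thresholds and 8.16% fell. No member fell. The median log2 fold change was 2.35 over the 7 tested genes described here, from 1.20 for Abat to 4.79 for Gabrg1, beside a median of -0.00416 over all genes tested. All 4 P11 libraries stood above all 4 E21 libraries for 7 of the 8, a pattern that 35.9% of the genes tested showed (35.4% had all E21 libraries on top). All 7 still passed when any 1 of the 8 libraries was left out. In bulk libraries such as these, a change in the share of a cell type and a change in RNA per cell cannot be told apart.

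**Figure D1:**
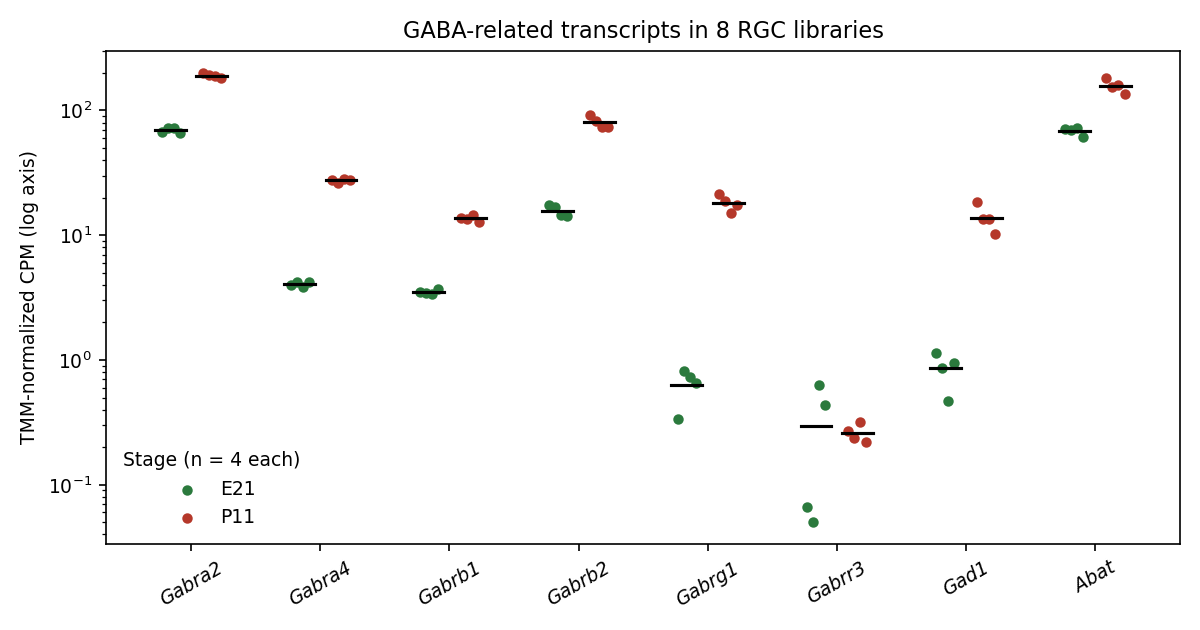
TMM-normalized CPM (log axis) of each of the 8 genes in the 4 E21 libraries (green) and the 4 P11 libraries (red), with black bars at the stage means. The P11 points stand above the E21 points for 7 genes, and only Gabrr3 overlaps. Heights should be compared within a gene, since CPM is not corrected for transcript length.

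Both alpha subunit genes rose, and by different amounts. Gabra2 (ENSRNOG00000002349) encodes the alpha-2 subunit, which in many regions is abundant early in development. Its counts at E21 came to 67.8, 72.0, 71.7 and 66.0 CPM, and those at P11 to 199, 191, 188 and 183 CPM. It rose, with tight values within each stage. The change was from 69.4 ± 2.94 to 191 ± 6.57 CPM, a log2 fold change of 1.45 with a standard error of 0.04 (2.74-fold, adjusted p = 3.20e-14, edgeR).

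Gabra4 (ENSRNOG00000002336) encodes the alpha-4 subunit, which is found mainly in receptors outside synapses. It was counted at 4.02, 4.21, 3.88 and 4.24 CPM in the E21 libraries and at 27.9, 26.0, 28.3 and 27.9 CPM in the P11 libraries. The SD was 4.11% of the mean at E21 and 3.68% at P11, and the change from 4.09 ± 0.168 to 27.5 ± 1.01 CPM gave a log2 fold change of 2.75 with a standard error of 0.08 (6.73-fold, adjusted p = 2.82e-14, edgeR). Its promoter window is shown because the gene lies inside a cluster whose 4 subunit genes all rose. The window runs from 250 bases before the annotated start to 50 after it (RefSeq, GRCr8, chr14:36944497-36944796, plus strand, 70.7% G and C beside a median of 51.7% over all 33469 promoter windows). Its capitals mark a GC box, GGGCGG, which begins 123 bases before the start.
Gabra4: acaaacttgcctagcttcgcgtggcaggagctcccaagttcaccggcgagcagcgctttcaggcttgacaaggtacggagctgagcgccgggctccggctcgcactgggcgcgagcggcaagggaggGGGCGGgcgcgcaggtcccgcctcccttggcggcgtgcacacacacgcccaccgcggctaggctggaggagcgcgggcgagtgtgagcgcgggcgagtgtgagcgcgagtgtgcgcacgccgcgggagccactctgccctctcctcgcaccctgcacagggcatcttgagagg

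Because the alpha genes rose by different amounts, their proportions within a library changed, and these proportions do not depend on how libraries are scaled. The ratio of Gabra4 to Gabra2 reads was 0.0592, 0.0584, 0.0541 and 0.0642 in the E21 libraries and 0.140, 0.136, 0.150 and 0.152 in the P11 libraries. Gabra4 thus gained on Gabra2 in every P11 library, by a log2 difference of 1.29 with a standard error of 0.06 (2.44-fold). The stages did not overlap, and an exact permutation test over libraries (two-sided) gave p = 0.0286, which is the smallest value that 4 against 4 libraries can give and is also the adjusted value over the 6 ratios computed. The size of a single ratio has no meaning as a molar proportion, because transcript length was not available.

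The beta subunits, which carry part of the GABA binding site, rose more nearly in step. Gabrb1 (ENSRNOG00000002327) stood at 3.48, 3.45, 3.36 and 3.73 CPM in the E21 libraries and at 13.8, 13.6, 14.7 and 12.9 CPM in the P11 libraries, with no overlap. That made a log2 fold change of 1.97 with a standard error of 0.11 (3.92-fold, adjusted p = 3.38e-11, edgeR). Gabrb2 (ENSRNOG00000003680), a beta subunit widespread in the mature brain, stood at 17.4, 16.8, 14.6 and 14.2 CPM at E21 and at 91.3, 82.7, 74.1 and 73.1 CPM at P11. Its stages were likewise separate, and the log2 fold change was 2.35 with a standard error of 0.08 (5.08-fold, adjusted p = 1.71e-12, edgeR). Within libraries the ratio of Gabrb2 to Gabrb1 reads went from between 3.80 and 5 at E21 to between 5.06 and 6.62 at P11. This log2 difference of 0.39 with a standard error of 0.12 (1.31-fold) was the smallest of the ratios described here, and the highest E21 library nearly touched the lowest P11 library (two-sided exact permutation p = 0.0286). In the RefSeq annotation, Gabrb1 overlaps a long non-coding RNA gene and a pseudogene, and Gabrb2 and Gabrr3 each overlap 1 long non-coding RNA gene. The strand setting of the counting is not given in the sources used here, so reads of these partners could be shared.

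The 2 beta genes lie on different chromosomes, and their promoter windows are shown because they hold the same stretch of letters. The windows are chr14:36902844-36903143 on the minus strand for Gabrb1 and chr10:27439543-27439842 on the plus strand for Gabrb2 (RefSeq, GRCr8), both written in the direction of the gene. The longest run that they share, TGCGCATGCGC, is in capitals. It begins 30 bases before the annotated start in Gabrb1 and 96 bases before it in Gabrb2. In Gabrb1 the next letter completes a palindrome, so that the same letters are also met on the other strand 1 position on, and the capitals cover both.
Gabrb1: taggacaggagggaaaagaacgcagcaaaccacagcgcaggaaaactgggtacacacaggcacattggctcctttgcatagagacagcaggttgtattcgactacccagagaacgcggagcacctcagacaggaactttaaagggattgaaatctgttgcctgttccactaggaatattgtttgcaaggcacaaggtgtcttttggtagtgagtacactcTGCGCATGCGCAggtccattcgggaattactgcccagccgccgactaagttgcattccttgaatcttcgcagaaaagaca
Gabrb2: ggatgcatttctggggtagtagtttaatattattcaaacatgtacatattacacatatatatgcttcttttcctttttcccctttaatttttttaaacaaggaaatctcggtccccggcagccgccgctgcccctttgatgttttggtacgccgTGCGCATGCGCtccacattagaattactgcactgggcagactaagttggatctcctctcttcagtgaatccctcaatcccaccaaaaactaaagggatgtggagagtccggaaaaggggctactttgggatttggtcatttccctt
Searched on both strands, this run of 11 letters was present in 200 of the 33469 promoter windows in the table (0.598%). Its palindromic part GCGCATGCGC, which resembles the site of the transcription factor NRF1, was present in 285 windows (0.852%). Of the 6 members with a window, Gabrb1 and Gabrb2 held it. The run was picked after the sequences had been compared, so its presence in both is a description, and a match in letters is not a bound site.

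Gabrg1 (ENSRNOG00000002360) encodes the gamma-1 subunit, which is restricted to a few regions of the adult brain. It was represented by 5, 16, 14 and 9 reads in the E21 libraries (0.335, 0.811, 0.735 and 0.658 CPM), above the floor of 3 reads but close to it. At P11 it had 317, 317, 239 and 321 reads (21.3, 18.8, 15.2 and 17.5 CPM). This was the largest rise of the group, with a log2 fold change of 4.79 and a standard error of 0.18 (27.6-fold, adjusted p = 4.38e-13, edgeR), and 1.67% of all genes tested rose more. Because the E21 counts are small, the fold rests on few reads, and it ranged from 4.59 to 4.94 on the log2 scale when single libraries were left out.

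The promoter window of Gabrg1 (RefSeq, GRCr8, chr14:37750042-37750341, plus strand) is shown as that of the member with the largest rise, and it held none of the 4 motifs searched for in all members.
Gabrg1: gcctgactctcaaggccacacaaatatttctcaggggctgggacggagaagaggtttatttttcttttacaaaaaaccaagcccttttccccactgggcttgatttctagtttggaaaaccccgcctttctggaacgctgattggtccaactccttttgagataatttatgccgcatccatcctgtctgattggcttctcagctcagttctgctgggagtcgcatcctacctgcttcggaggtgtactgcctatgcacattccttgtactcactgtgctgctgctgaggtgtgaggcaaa
These motifs, each searched on both strands, were the cAMP response element TGACGTCA, its core CGTCA, the GC box GGGCGG and the letters TATAAA. They were present in 1.83%, 21.2%, 33.1% and 14.2% of all promoter windows, and the core is contained in the full element. None of the 6 members with a window (Gabra4, Gabrb1, Gabrb2, Gabrg1, Gabrr3 and Gad1) held the element or its core. The GC box was met in Gabra4 and Gad1 and TATAAA in Gad1. No window was at hand for Gabra2 and Abat.

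**Figure D2:**
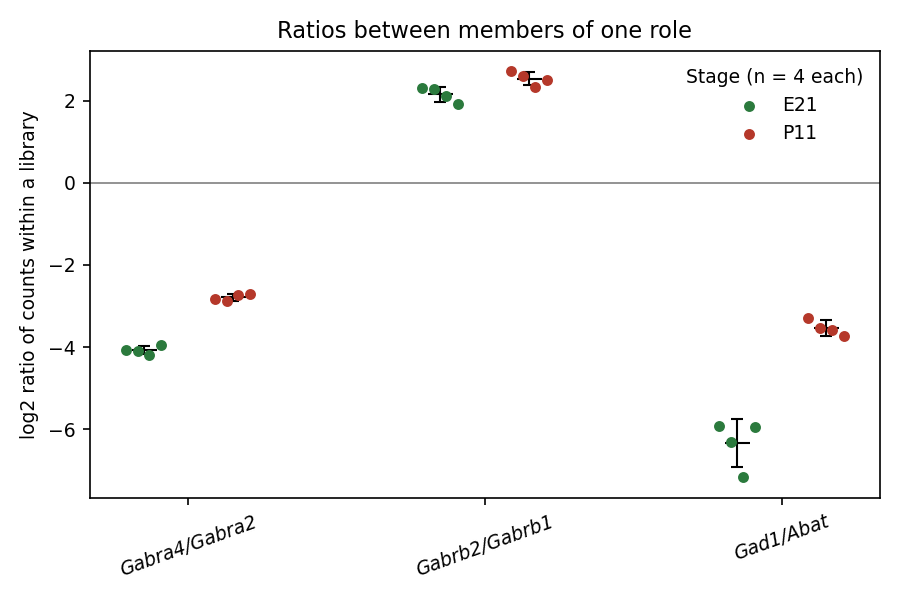
Log2 ratio of the reads of a gene to those of another gene in the same library, for 3 pairs of genes of one role, in the 4 E21 (green) and 4 P11 (red) libraries, with bars for mean ± SD. The stages are separate for every pair, by the most for Gad1/Abat (a log2 difference of 2.80) and by the least for Gabrb2/Gabrb1 (0.39).

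Gabrr3 (ENSRNOG00000001679), a rho subunit, belongs to a family whose channels are insensitive to bicuculline and are best known from retinal bipolar cells. It was hardly detected at either stage, with 1, 1, 12 and 6 reads in the E21 libraries and 4, 4, 5 and 4 in the P11 libraries. The P11 values lie inside the range of the E21 values. No difference was detectable at this depth (two-sided exact permutation p = 0.743, on the log2 of CPM with a small constant added). The filter on low counts removed it, and without that filter its log2 fold change was -0.19 (adjusted p = 0.795, edgeR).

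The enzyme genes Gad1 and Abat rose at P11, as did the tested receptor genes described here. Gad1 (ENSRNOG00000000007) encodes glutamate decarboxylase 67, which makes GABA from glutamate and marks GABAergic neurons, among them many amacrine cells. There were 17, 17, 9 and 13 reads of it in the E21 libraries (1.14, 0.861, 0.472 and 0.951 CPM) and 274, 226, 211 and 187 reads in the P11 libraries (18.4, 13.4, 13.4 and 10.2 CPM). The lowest P11 library was 8.96 times the highest E21 library. From 0.856 ± 0.280 to 13.8 ± 3.40 CPM, the log2 fold change was 4.03 with a standard error of 0.24 (16.4-fold, adjusted p = 9.04e-10, edgeR). Its standard error was the largest among the 7 genes. The promoter window of Gad1 (RefSeq, GRCr8, chr3:75777202-75777501, plus strand, 67.7% G and C) is shown because it was the member window with the most motif matches. Capitals mark TATAAA, which begins 213 bases before the annotated start, and the GC box on the opposite strand, written CCGCCC here, which begins 93 bases before it.
Gad1: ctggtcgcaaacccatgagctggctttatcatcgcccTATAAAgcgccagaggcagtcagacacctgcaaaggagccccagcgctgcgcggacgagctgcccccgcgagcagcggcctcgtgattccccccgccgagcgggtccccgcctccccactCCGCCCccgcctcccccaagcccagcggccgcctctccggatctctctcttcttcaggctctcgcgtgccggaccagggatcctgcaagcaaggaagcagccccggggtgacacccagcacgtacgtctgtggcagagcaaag

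Abat (ENSRNOG00000002636) encodes GABA transaminase, the mitochondrial enzyme that degrades GABA. Its level was 71.0, 70.3, 72.0 and 61.1 CPM in the E21 libraries and 181, 156, 160.0 and 136 CPM in the P11 libraries. E21 library 4 was lower than the other E21 libraries, and the stages did not overlap. The rise from 68.6 ± 5.07 to 158 ± 18.2 CPM gave a log2 fold change of 1.20 with a standard error of 0.08 (2.30-fold, adjusted p = 4.39e-08, edgeR). Tested against a log2 fold change of 1 instead of 0, in edgeR's glmTreat, Abat no longer passed (adjusted p = 0.0204), while the other 6 genes did pass. The ratio of Gad1 to Abat reads went from 0.0160, 0.0122, 0.00656 and 0.0156 at E21 to 0.102, 0.0860, 0.0837 and 0.0749 at P11. The Gad1 transcript thus gained on the Abat transcript by 2.80 on the log2 scale with a standard error of 0.31 (6.99-fold, two-sided exact permutation p = 0.0286, the smallest possible).

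Gad1 also marks amacrine cells, so amacrine markers were read beside it. Of 5 amacrine markers, none rose past the thresholds at P11 and 2 fell. Sst, the somatostatin gene, was between 281 and 403 CPM at E21 and between 34.0 and 43.6 CPM at P11, so it changed by -3.12 on the log2 scale (adjusted p = 1.49e-07, edgeR). Prox1, a transcription factor of amacrine, horizontal and bipolar cells, went from 5.97 ± 0.518 to 2.63 ± 0.296 CPM (log2 fold change -1.18, adjusted p = 1.60e-06, edgeR). Pax6 changed by -0.50 on the log2 scale, Barhl2 by -0.02 and Nos1 by 0.67, none past the thresholds, and Pax6 and Barhl2 are used by RGCs too. The summed level of the 5 markers ran between 835 and 963 CPM at E21 and between 447 and 470 CPM at P11. Most of the sum comes from Pax6 and Sst, and these markers do not cover all amacrine types. The part of amacrine cells in the Gad1 rise was not tested.

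**Figure D3:**
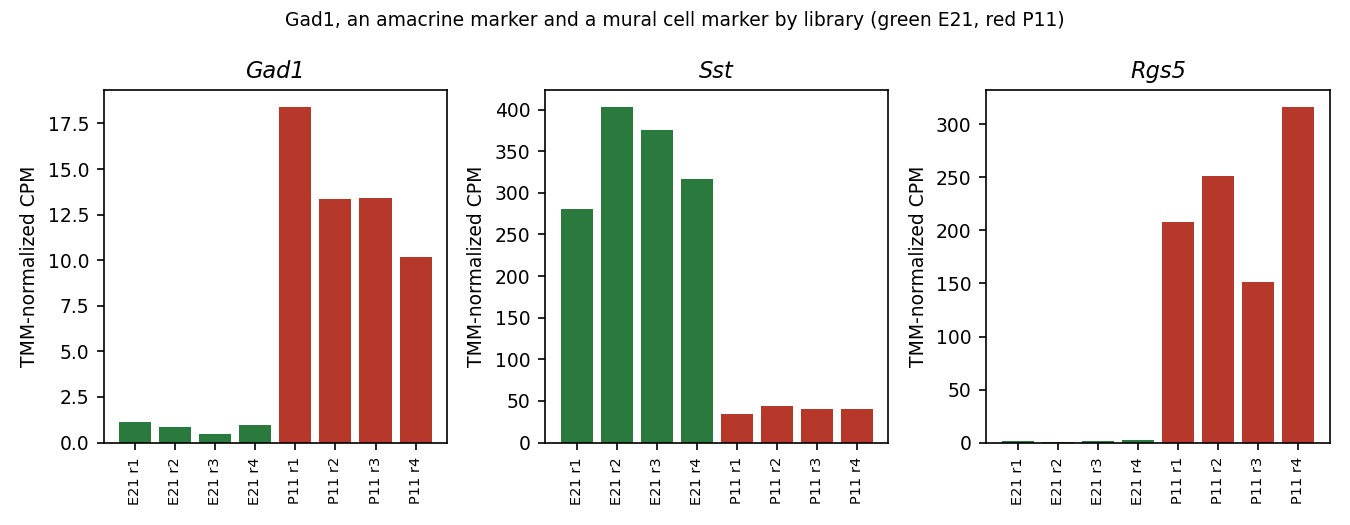
TMM-normalized CPM (linear axes from 0) of Gad1, the amacrine marker Sst and the mural cell marker Rgs5 in each of the 8 libraries, green for E21 and red for P11, with r for the replicate number. Gad1 and Rgs5 were higher and Sst was lower in every P11 library. Sst fell the most of the 5 amacrine markers. Of the others, Prox1 and Pax6 fell by less, Barhl2 changed by -0.02 on the log2 scale and Nos1 by 0.67. A link between Gad1 and these markers was not tested.

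Some markers of other cells rose at P11, and others of the same lists did not. Mural cell markers Rgs5 and Notch3 summed to between 2.79 and 4.75 CPM at E21 and to between 272 and 543 CPM at P11, and both passed the thresholds. Of 6 photoreceptor markers 4 rose, with sums between 6.99 and 8.50 CPM at E21 and between 29.9 and 49.4 CPM at P11. Of 4 glial markers S100b and Hes1 rose, with sums between 0.892 and 1.24 CPM at E21 and between 11.6 and 18.8 CPM at P11, most of it Hes1 (13.4 CPM on average). Gfap stayed at or below the floor of 3 reads in every library, and Sox9, too low to be tested, went from an average of 0.623 to 0.354 CPM, and every E21 library was above every P11 library. Of 4 bipolar markers Prkca rose, with sums between 41.4 and 49.0 CPM at E21 and between 87.3 and 94.5 CPM at P11, nearly all of it Prkca. Grm6 went the other way, from 5.97 to 3.37 CPM (log2 fold change -0.82, adjusted p = 8.00e-05, edgeR), short of the fold threshold, and Lhx4, too low to be tested, averaged 0.842 CPM at E21 and 0.400 CPM at P11. Pcp2 stayed close to the floor. Of 3 endothelial markers Flt1 rose, with sums up to 0.557 CPM at E21 and up to 6.16 CPM at P11. The 3 microglial markers were too low to be tested, with sums of at most 0.952 CPM. Of 2 oligodendrocyte markers none rose and Mog fell, with sums between 25.8 and 32.1 CPM at E21 and between 13.8 and 15.1 CPM at P11. Of 3 neuronal markers none rose and Gap43, a growth cone protein, fell. The sums were between 3355 and 3497 CPM at E21 and between 2047 and 2176 CPM at P11. Most of that drop was Gap43, which averaged 1711 CPM at E21 and 623 CPM at P11. Uchl1 changed by -0.21 and Rbfox3 by 0.08 on the log2 scale. The part of these cells in the rise of the members was not tested, and the IDs of the defining RGC markers, such as Pou4f1 and Rbpms, were not paired with symbols in the tables used.

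Within P11 the libraries did not rank alike for all members. P11 library 1 held the highest value for 5 of the 8 genes (Gabra2, Gabrb2, Gabrg1, Gad1 and Abat), and P11 library 4 held the lowest for 6 (Gabra2, Gabrb1, Gabrb2, Gabrr3, Gad1 and Abat). Of all genes tested, 26.4% were highest in library 1 and 29.5% lowest in library 4. Gabra4, Gabrb1 and Gabrr3 were highest in library 3, Gabra4 was lowest in library 2 and Gabrg1 in library 3, and the place of Gabrr3 rests on 4 or 5 reads a library. The gap between the highest and the lowest P11 library was 1.81-fold for Gad1 and 1.33-fold for Abat, and 1.09-fold for both Gabra2 and Gabra4. The summed mural markers were 364, 452, 272 and 543 CPM in P11 libraries 1 to 4, so library 4 was the highest and library 3 the lowest. A link between the members and these markers was not tested. Without P11 library 4, all 7 tested genes passed the thresholds.

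Of the receptor genes described here, 4 lie next to each other on chromosome 14, and they were compared with their neighbours in the order of protein-coding genes (RefSeq, GRCr8). Gabrb1, Gabra4, Gabra2 and Gabrg1 follow each other with only Cox7b2 between them, and all 4 rose, by between 1.45 and 4.79 on the log2 scale. Of the 16 genes within 8 places of the cluster, 4 could be tested. None of these rose past the thresholds and 1 fell, Atp10d. Of all genes tested, 16.5% rose and 8.16% fell, and 4 neighbours are too few to compare with these shares. Atp10d changed by -1.02 on the log2 scale, Commd8 by -0.92, Gnpda2 by 0.84 and Guf1 by -0.01, with a median of -0.46. Within the cluster the genes differed in size of change, since Gabrg1 and Gabra2, which adjoin each other, rose 27.6-fold and 2.74-fold. On one side of Gabrb2, on chromosome 10, 6 of the next 8 genes could be tested. Of these Pttg1 rose (2.42 on the log2 scale, from a mean of 0.287 to 1.59 CPM) and C1qtnf2 and Ccnjl fell (-1.07 and -2.69), with a median of -0.38. The E21 level of Pttg1 was close to the floor, and 6 genes are likewise too few to compare with the shares over all genes tested.

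**Figure D4:**
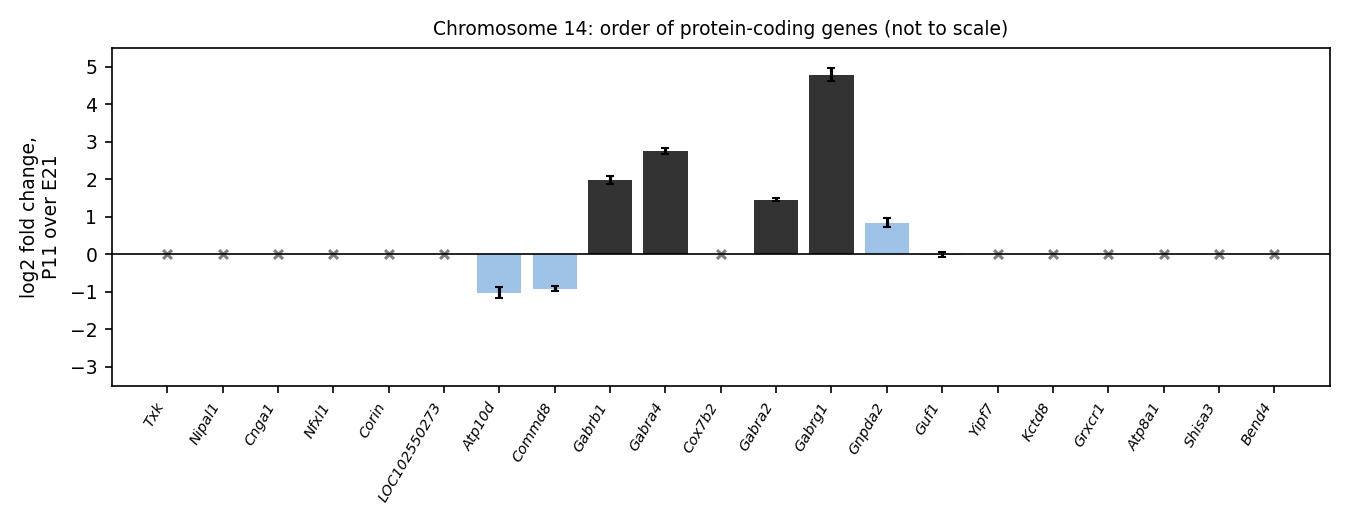
Log2 fold change (P11 over E21, bars with ± 1 standard error) of protein-coding genes in chromosome order around the subunit cluster of chromosome 14, members in black and neighbours in blue. Grey crosses mark genes with no symbol pairing or too few reads. The members all point up, by between 1.45 and 4.79. Of 4 tested neighbours 1 fell past the thresholds and none rose past them, though Gnpda2 was up by 0.84. Of all genes tested, 16.5% rose and 8.16% fell, and 4 neighbours are too few to compare with these shares.

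Other genes of GABA signalling moved in both directions. Of a list of 12, covering the GABA-B receptor and its partners, receptor trafficking, inhibitory synapses, chloride balance and a minor route of GABA synthesis, 2 rose (16.7%) and 1 fell, with a median log2 fold change of -0.12. These shares are close to those of all genes tested, 16.5% and 8.16%, so the count sets the list apart from other genes in neither direction. Gabbr1, which encodes a subunit of the metabotropic GABA-B receptor, went from 1449 ± 36.6 CPM to 1101 ± 33.8 CPM. Its log2 fold change of -0.40 (adjusted p = 7.75e-08, edgeR) was short of the fold threshold, although the stages did not overlap. Kcnj6, which encodes the potassium channel GIRK2 that GABA-B receptors open, had between 8 and 21 reads in the E21 libraries and between 386 and 481 in the P11 libraries, and its log2 fold change was 4.85 with a standard error of 0.15 (adjusted p = 4.33e-14, edgeR). The receptor transcript was thus a little lower at P11 while that of the channel rose.

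Nsf, an ATPase that recycles the membrane fusion machinery and also takes part in the transport of GABA-A receptors, was between 162 and 222 CPM at E21 and between 1333 and 1504 CPM at P11. This made a log2 rise of 2.77 with a standard error of 0.10 (6.82-fold, adjusted p = 2.15e-09, edgeR). Wnk3, a kinase that acts on the chloride transporters that set the driving force of GABA-A receptors, went the other way, from between 60.8 and 70.6 CPM at E21 to between 25.5 and 31.3 CPM at P11 (log2 fold change -1.21, adjusted p = 9.29e-11, edgeR). Phf24, a modulator of GABA-B signalling, missed the fold threshold narrowly with a log2 fold change of 0.95, which came to 1.01 with library size alone as the scaling, to 1.003 with upper-quartile scaling and to 1.01 without P11 library 4. The other 7 genes of the list changed by between -0.39 and 0.58.

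**Figure D5:**
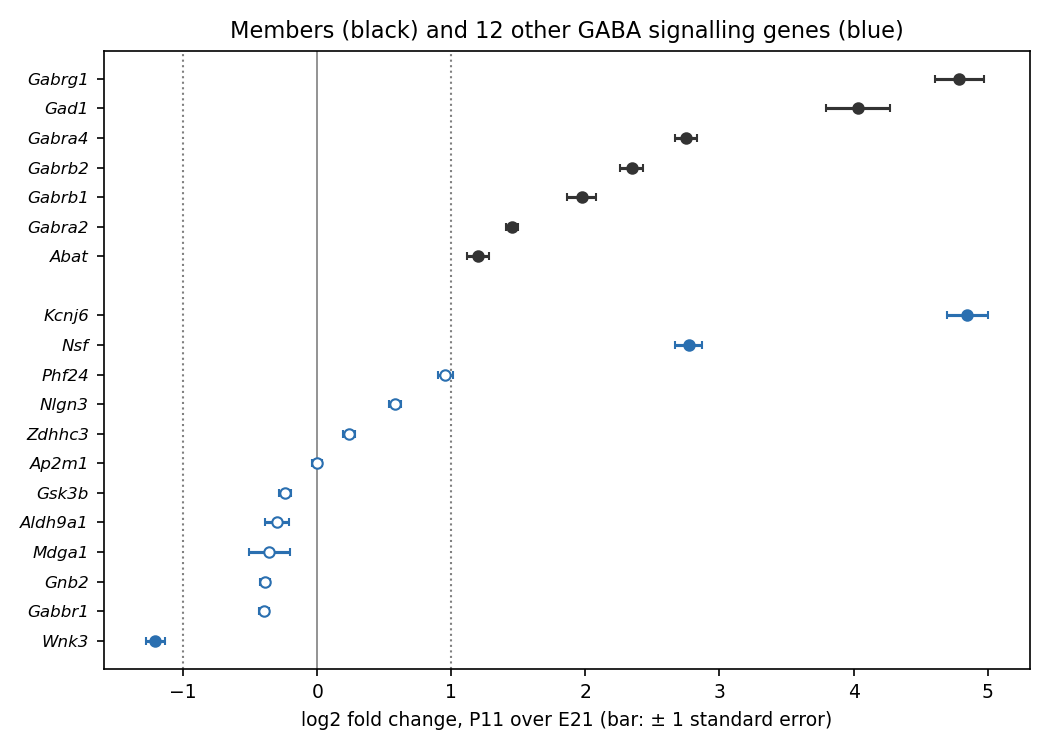
Log2 fold change (P11 over E21) with ± 1 standard error for the 7 genes tested (black) and 12 other genes of GABA signalling (blue), with filled symbols for genes past both thresholds and dotted lines at the fold threshold. These 7 all lie right of the upper fold threshold, from 1.20 to 4.79, and the other genes lie on both sides, from -1.21 for Wnk3 to 4.85 for Kcnj6.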

How the data were processed

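RNA-seq of immunopanned rat RGCs was analysed from 4 E21 and 4 P11 libraries. The authors depleted rRNA, used a SMARTer library kit and 1 lane of a HiSeq, and trimmed (Cutadapt 1.16), filtered (PRINSEQ), aligned (STAR 2.5.3a, Rnor_6.0) and counted the reads (HTSeq 0.6.1). The deposited files, 1 a library, hold unnormalized counts by Ensembl gene ID. The annotation release and strand setting are not given in the sources used here. Rows that name no gene were left out, among them the tally of alignments without a unique position. These made up between 37.4% and 42.2% of all tallied counts of a library at E21 and between 31.7% and 36.3% at P11. The stages did not overlap in this share, and its effect on the fold changes was not tested.

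Counts were filtered (filterByExpr), scaled by TMM and tested with edgeR 4.0.16 (quasi-likelihood test, robust) in R 4.3.3 with Benjamini-Hochberg adjustment over all genes tested. The code was tested on simulated data. The standard error is the size of the log2 fold change over the square root of F. CPM uses TMM library sizes. Log2 ratios have 0.5 added to each count, while the ratios printed for single libraries are of the raw counts. The members and lists were chosen with earlier results of these data known, and 2 of the 10 genes met by the rule, with the ratios that use them, are not reported here. Of the GABA signalling list Gabbr1 and genes past both thresholds are named, with Phf24 and the neighbours chosen after their values were seen. Symbols come from the study's gene table, which also holds the authors' comparison, not used here. Figures were drawn with matplotlib 3.10.9. Alternatives were DESeq2 1.42.0, other scalings, filters and thresholds, a replicate block and each library left out.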

Additional observations from a re-analysis of the deposited data

Results flagged for a closer look

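Abat in E21 library 4 was at 61.1 CPM, while the other E21 libraries lay between 70.3 and 72.0 CPM. Its gap to the nearest library, over the range of the group, exceeded Dixon's 95% critical value for 4 samples. It was 1 of 32 groups tested, and chance flags about 1 in 20. All P11 libraries lay above all E21 libraries for Abat, and without E21 library 4 the gene still passed both thresholds.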

How the results depend on the processing

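All 7 tested genes described here passed the thresholds in the main analysis and with DESeq2, DESeq2 size factors, library size, upper-quartile scaling, no filter, an adjusted p of 0.05 and each library left out. When at least 10 counts were asked of every library, 5 were tested and passed, since that removes Gabrg1 and Gad1, and 6 passed with glmTreat, which loses Abat. Over all 10 genes met by the rule the count was 8, 6 with that filter and 7 with glmTreat. Over all genes the count of 3462 ranged from 2317 with glmTreat to 4205 with no filter, and from 3446 to 3600 with a library left out. The GABA signalling list had between 2 and 4 calls. No value reversed. The 7 genes kept their direction in all 117 alternative fits, and the ratios in all 66. The replicate numbers in the labels mark no shared litter. The deviations of same-numbered libraries correlated with r between -0.0321 and 0.0905, and 2 of 4 E21 libraries matched their own number best, so the numbers were not taken as a pairing. With the replicate block all 7, 8 of the 10 genes met by the rule, and 3463 of all genes passed. With 4 pairs, permuted signs give no p below 0.125 for the ratios. Scaling moved the median log2 fold change of all genes to at most 0.0502. Levels per kilobase, and so coding length in place of transcript length, were not run for lack of lengths. Depth limits Gabrr3 at both stages and Gabrg1 and Gad1 at E21.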
